A study of Mus musculus with 18 samples.

Results

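Testis RNA was compared between mice that received gut microbiota by AOS10mg/kg-FMT, as the label writes it, and mice that were given AOS itself at 10 mg/kg. FMT is the transfer of fecal microbiota, and all of these mice were also on a high fat diet with STZ. STZ is read here as streptozotocin, which kills pancreatic beta cells, and the labels do not spell out AOS. The comparison takes 6 of the 18 libraries of the series, the 3 of HFD_STZ_AOS_FMT (called here the transfer group) and the 3 of HFD_STZ_AOS (the direct group). It covers 13874 of 20979 genes, those with at least 1 RPKM (reads scaled by transcript length and by library total) in at least 3 of the 18 libraries. All mice were of the outbred ICR stock and 10 weeks old. The other groups of 3 libraries were control, AOS, HFD_STZ and HFD_STZ_control_FMT (control microbiota given to mice on the diet with STZ). They entered the same fit, and so its estimate of the spread, and their values are set beside the result. The labels do not say whether the transfer recipients also received AOS, nor whether the 3 libraries of a group came from 3 separate mice. The p-values therefore measure only the spread between these libraries, which may be technical.

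The testis makes sperm in its tubules from stem cells through meiosis and a long remodelling of spermatids, with Sertoli cells nursing the germ cells. Leydig cells between the tubules make testosterone, and macrophages, vessels and fat lie around them. The epididymis, a long duct in which sperm mature, lies against the testis, and its segments each secrete their own proteins. Diabetes and high fat feeding are both known to harm sperm production, and gut microbes are studied as one route by which diet reaches distant organs.

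The label testis fits the markers. Prm1, the protamine that packs sperm DNA, was at 14126 to 16703 RPKM in the direct libraries and 14574 to 17850 in the transfer libraries, and Insl3, a Leydig cell hormone, at 3030 to 3643 and 3080 to 4516. Libraries of the same group correlated across genes at 0.988 to 0.995 (Pearson), and libraries of different groups at 0.985 to 0.993. RPKM sums lay between 607721 and 646822 in the 6 libraries, and 13063 to 13490 genes reached 1 RPKM. Some libraries stood apart for genes of the epididymis. Crisp1, a sperm-coating protein secreted by the epididymis, was at 156.69 RPKM in direct replicate 3 and 164.71 in transfer replicate 3, against 0.45 to 11.49 in the other libraries of both groups. Direct replicate 3 was also the highest of its group for Fabp4 and Car3, genes of fat cells.

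Few genes passed adjustment when the testis transcriptomes of both groups were compared. Across 13874 genes 3 passed the test (0.0216%), 2 of them higher in the transfer group (0.0144%) and 1 lower (0.00721%). The test was limma on log2(RPKM + 1) over all 18 libraries, two-sided, with Benjamini-Hochberg adjustment and a threshold of 0.05. Kap, a gene known from kidney tubules, was among those that rose, and the gene that fell was the gene model Gm13305. At an unadjusted p under 0.05 there were 1572 genes (11.3%), 638 of them higher (4.6%) and 934 lower (6.73%), where 693.7 would be expected by chance. The 3 transfer libraries did not overlap the 3 direct libraries at 1742 genes (12.6%), being higher at 764 (5.51%) and lower at 978 (7.05%). Most differences were small, since those between the 5th and 95th percentile ran from -0.25 to 0.21 on the log2 scale with a median of -0.009, and 46 genes differed by more than 1.

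The count of genes that passed rested on direct replicate 2. Without this library 129 genes passed, 31 higher and 98 lower, and without any other single library of both groups 2 to 5 passed. Direct replicate 2 was the direct library nearest to the transfer group at all 10 of the named genes of smallest p with lower values in the transfer group, and at 3 of the 10 with higher values. The named genes were chosen on these same libraries, and no share over all genes is given. With only both groups in the fit 5 genes passed, 2 of them among the 3. Without the 4 libraries of the series with more than 100 RPKM of Crisp1, among them replicate 3 of both groups, 2 genes passed.

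**Figure D1:**
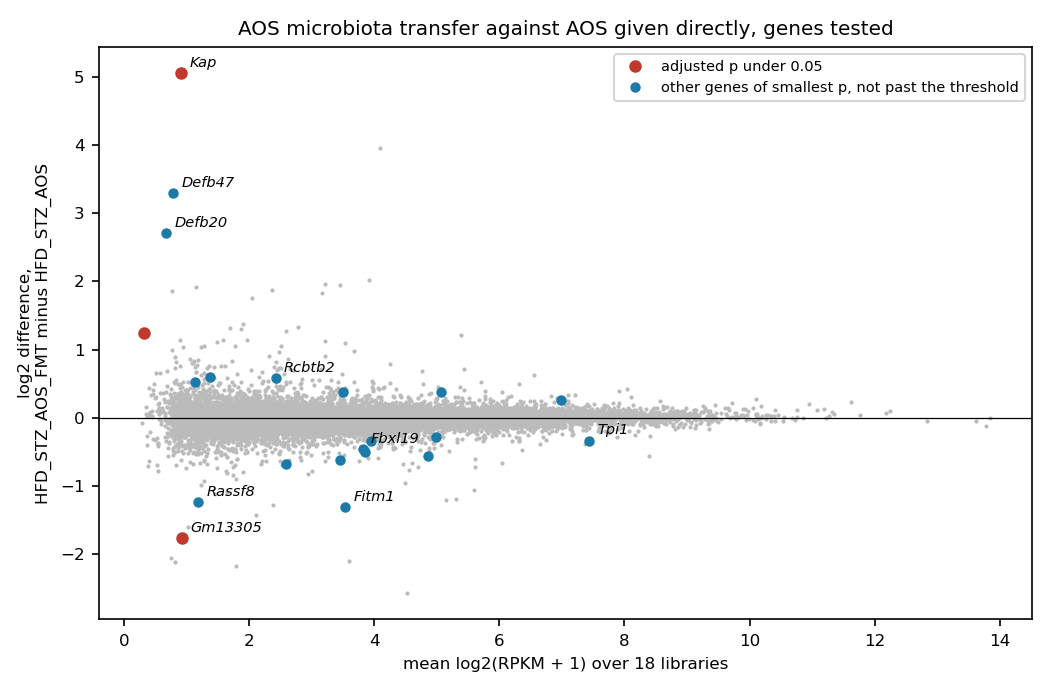
Each grey point is 1 of the 13874 genes tested, with its mean log2(RPKM + 1) over 18 libraries on the horizontal axis and its log2 difference, transfer minus direct, on the vertical axis. The 3 red points passed the adjusted threshold of 0.05 and the blue points are the genes of smallest p that did not; most genes lie within -0.25 to 0.21.

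Kap encodes the kidney androgen-regulated protein, which proximal tubule cells of mouse kidney make under androgen. Its gene lies on chromosome 6 at 133849851 to 133853762 of mm10, on the minus strand. Kap was at 39.24, 31.16 and 31.36 RPKM in transfer replicates 1 to 3 and at 0.14, 0 and 0 RPKM in the direct replicates. All 3 transfer libraries were high, and the highest of the other 15 libraries of the series, HFD_STZ replicate 3, was at 0.73 RPKM. The log2 difference was 5.05 ± 0.15 (SE) on the log2(RPKM + 1) scale, with an adjusted p of 5.6e-12 by limma. Kap met the filter only through the 3 transfer libraries, where it was high, so this p-value is given as a description. Under the 15 other settings of the analysis, which use the same values, the differences were 4.95 to 7.98.

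Other transcripts of the kidney tubule were present at low levels in the same libraries. A list of 23 kidney genes, chosen after Kap had been seen, held 2 tested genes (Kap and Aqp2) and 21 below the filter, so most of the list is given by level and has no test. At 12 of the 23 genes all 3 transfer libraries lay above all 15 other libraries, against 59 of the 20979 genes in the table (0.281%). Kap, whose values led to the list, is among the 12, and the 12 are also among the 59. Slc34a1, the main phosphate transporter of the proximal tubule, was at 0.86, 0.75 and 1.11 RPKM in the transfer libraries and at 0.04, 0.15 and 0.15 RPKM in the direct libraries. Keg1, a kidney-expressed acyltransferase-like gene, was at 0.70, 0.33 and 0.58 RPKM against 0.04, 0 and 0. S100g, the vitamin D-dependent calcium-binding protein calbindin-D9k, was at 0.61, 0.43 and 0.63 RPKM in the transfer libraries and listed at 0 in the direct ones. In each of these genes every transfer library was high, and no direct library reached the lowest of them.

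Umod, the uromodulin secreted by the thick ascending limb, was at 0.20, 0.34 and 0.33 RPKM in the transfer libraries and 0.05, 0.03 and 0.03 RPKM in the direct libraries. Acsm2, a medium-chain acyl-CoA synthetase of proximal tubule, was at 0.47, 0.27 and 0.31 RPKM against 0, 0 and 0.02. Cltrn (collectrin), which helps amino acid transporters reach the tubule surface, was at 0.62, 0.35 and 0.57 RPKM against 0, 0 and 0.06. These genes too were higher in each transfer library than in any direct library.

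The kidney list was not raised throughout. Lrp2 and Cubn, the endocytic receptors megalin and cubilin, were at 0.35 to 0.44 and 0.50 to 0.58 RPKM in the transfer libraries and 0.43 to 0.50 and 0.56 to 0.96 RPKM in the direct ones. Slc5a2 (the glucose transporter SGLT2), Slc12a1, Slc12a3 and Kl also overlapped between the groups. Aqp2, the collecting duct water channel, was at 3.57, 4.18 and 3.36 RPKM against 3.07, 1.84 and 2.97 RPKM and reached 7.14 RPKM elsewhere in the series. The summed level of the 23 genes was 43.5 to 52.5 RPKM in the transfer libraries and 5.67 to 8.18 RPKM in the direct libraries. Without Kap the sums were 12.3 to 13.2 against 5.67 to 8.18 RPKM, and 5.63 to 11.3 RPKM in the other 4 groups. Whether the RNA came from cells of the testis or from other tissue in the samples was not tested.

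**Figure D2:**
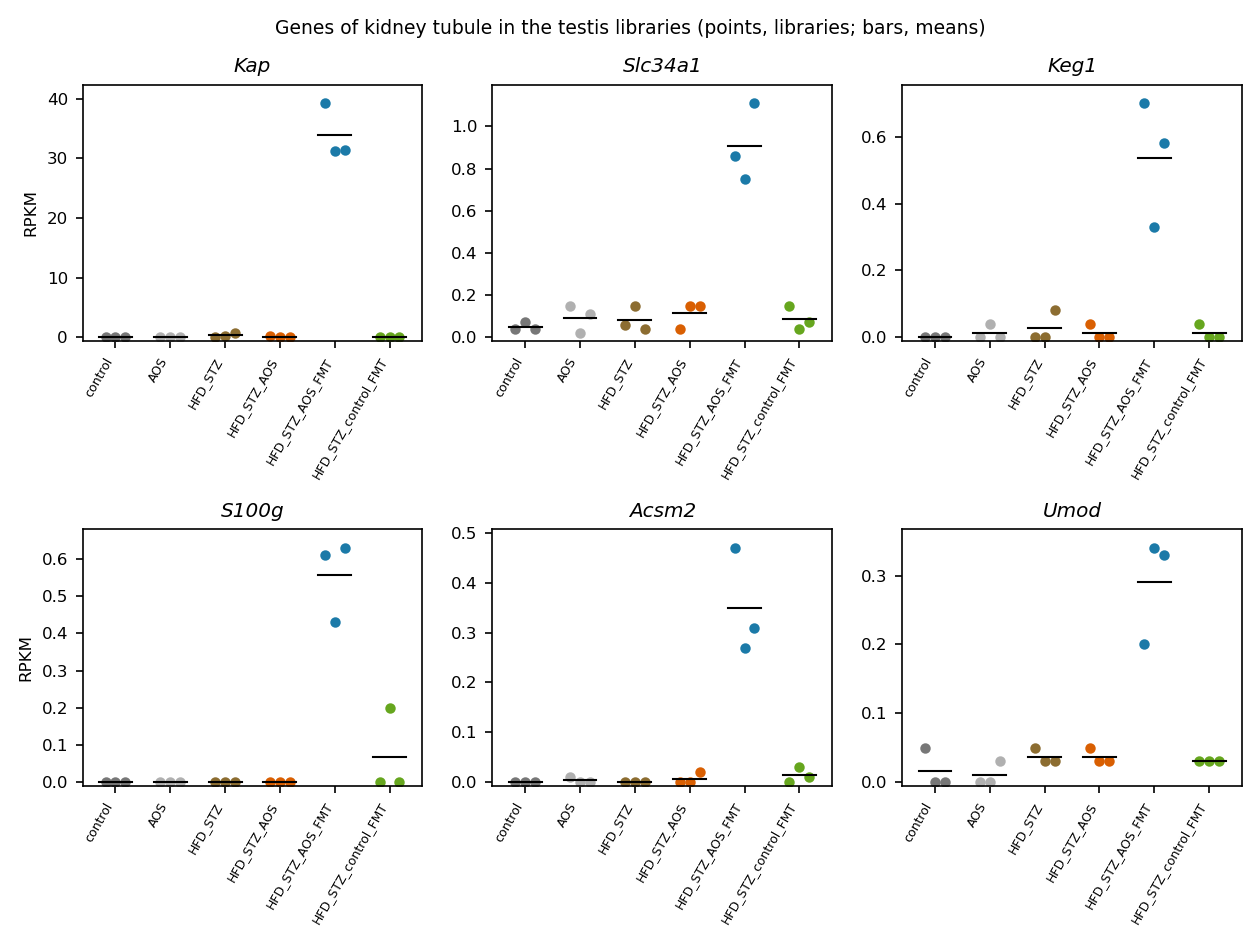
RPKM (vertical axis, linear) of 6 kidney tubule genes in the 18 libraries, 3 points for each of the 6 groups with a bar at the mean. In each panel the 3 libraries of HFD_STZ_AOS_FMT lie above all 15 others, for Kap at 31.16 to 39.24 RPKM against at most 0.73.

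Epididymal genes were next in size of difference, and none of them passed. Defb20 and Defb47 encode β-defensins, small secreted antimicrobial peptides of which many are made in the epididymis. Defb47 (chromosome 14, 62998077 to 63001160, plus strand) was at 37.31, 2.15 and 14.48 RPKM in the transfer libraries and 0.09, 0.09 and 0.67 RPKM in the direct libraries. Defb20 (chromosome 2, 152477063 to 152479934, plus strand) was at 17.43, 1.36 and 7.09 RPKM against 0.12, 0 and 0.12 RPKM. The groups did not overlap, which the choice of named genes required, and transfer replicate 2 was far below the other transfer libraries. The log2 differences were 3.29 ± 0.55 for Defb47 and 2.71 ± 0.45 for Defb20 (SE), each with an adjusted p of 0.0508 by limma. Defb20 met the filter only through the transfer libraries, since no other library of the series was above 0.48 RPKM. Its p-values are therefore given as descriptions. Without transfer replicate 2 the adjusted p by limma was 1.72e-06 for Defb47 and 2.72e-06 for Defb20. That setting leaves out the lowest transfer library of both genes, so these values too are descriptions.

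Some further genes of the first segments of the epididymis had the same order of libraries. Gpx5, an epididymal glutathione peroxidase that protects sperm, was at 22.21, 0.86 and 10.04 RPKM in the transfer libraries and 0, 0.04 and 0.13 RPKM in the direct libraries. Lcn9, a lipocalin, was at 5.69, 0.21 and 2.46 RPKM against 0 in each direct library, and Lcn8 at 0.91, 0.13 and 0.40 RPKM against 0. These 3 genes were below the filter and have no test. Cst11, a cystatin protease inhibitor, was at 11.22, 0.89 and 5.72 RPKM against 0.73, 0 and 0.86 RPKM, a log2 difference of 1.86 ± 0.47 (SE, adjusted p 0.162 by limma). In all of these replicate 1 of the transfer group was highest, replicate 3 intermediate and replicate 2 lowest. The order did not hold across the epididymal list. In the transfer libraries Adam7 was at 2.57, 0.58 and 8.09 RPKM and Lcn12 at 0.66, 0.37 and 0.74 RPKM, both highest in replicate 3.

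Crisp1 and Cd52 followed another order. Crisp1 was at 0.99, 11.49 and 164.71 RPKM in the transfer libraries and 2.93, 0.45 and 156.69 RPKM in the direct libraries, a log2 difference of 0.73 ± 1.94 (SE, adjusted p 0.933 by limma). Cd52, a surface glycoprotein that the epididymis passes to sperm and that lymphocytes also carry, was at 3.60, 11.10 and 139.53 RPKM against 6.37, 4.58 and 130.81 RPKM. Cuzd1 was at 3.25, 4.42 and 38.18 RPKM against 2.36, 1.63 and 37.40 RPKM. Here replicate 3 was high in both groups, so the groups overlapped, while transfer replicate 1, the highest for Gpx5 and Defb47, was low.

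The gene starts of Defb47 and Crisp1 are shown because these 2 epididymal genes were high in different libraries. The RefSeq sequences are of build GRCm38.p6 and run from 80 bases before to 20 after the RefSeq start, which in both genes is also the GENCODE start, 5′ to 3′ on the gene's strand, with the TATA-box letters TATAAA in capitals.
Defb47, chr14:62997997-62998096 (plus strand): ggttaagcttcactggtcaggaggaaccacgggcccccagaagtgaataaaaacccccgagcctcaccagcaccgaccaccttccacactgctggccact
Crisp1, chr17:40319188-40319287 (minus strand): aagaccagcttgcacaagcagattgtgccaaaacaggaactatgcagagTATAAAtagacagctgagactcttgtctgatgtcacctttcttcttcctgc
TATAAA was searched on both strands. It begins 31 bases before the start of Crisp1 and is not in the window of Defb47, and 1743 of 32851 RefSeq promoters (5.31%) hold it in the same window of 100 bases. Only these exact letters were searched, so near matches were not counted. Whether the letters bear on the levels of either gene was not tested.

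Of 32 epididymal genes 16 were tested, 14 of them with a difference above 0 (46.3% of all genes tested) and 0 passing. An unadjusted p under 0.05 was seen at 3 of the 16 (11.3% of all genes tested). The median was 0.24, and without direct replicate 3 it was 1.49. The summed level of the 32 genes ran from 366 to 870 RPKM in the direct libraries and 418 to 881 RPKM in the transfer libraries. The part that tissue beside the testis has in these values was not tested.

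**Figure D3:**
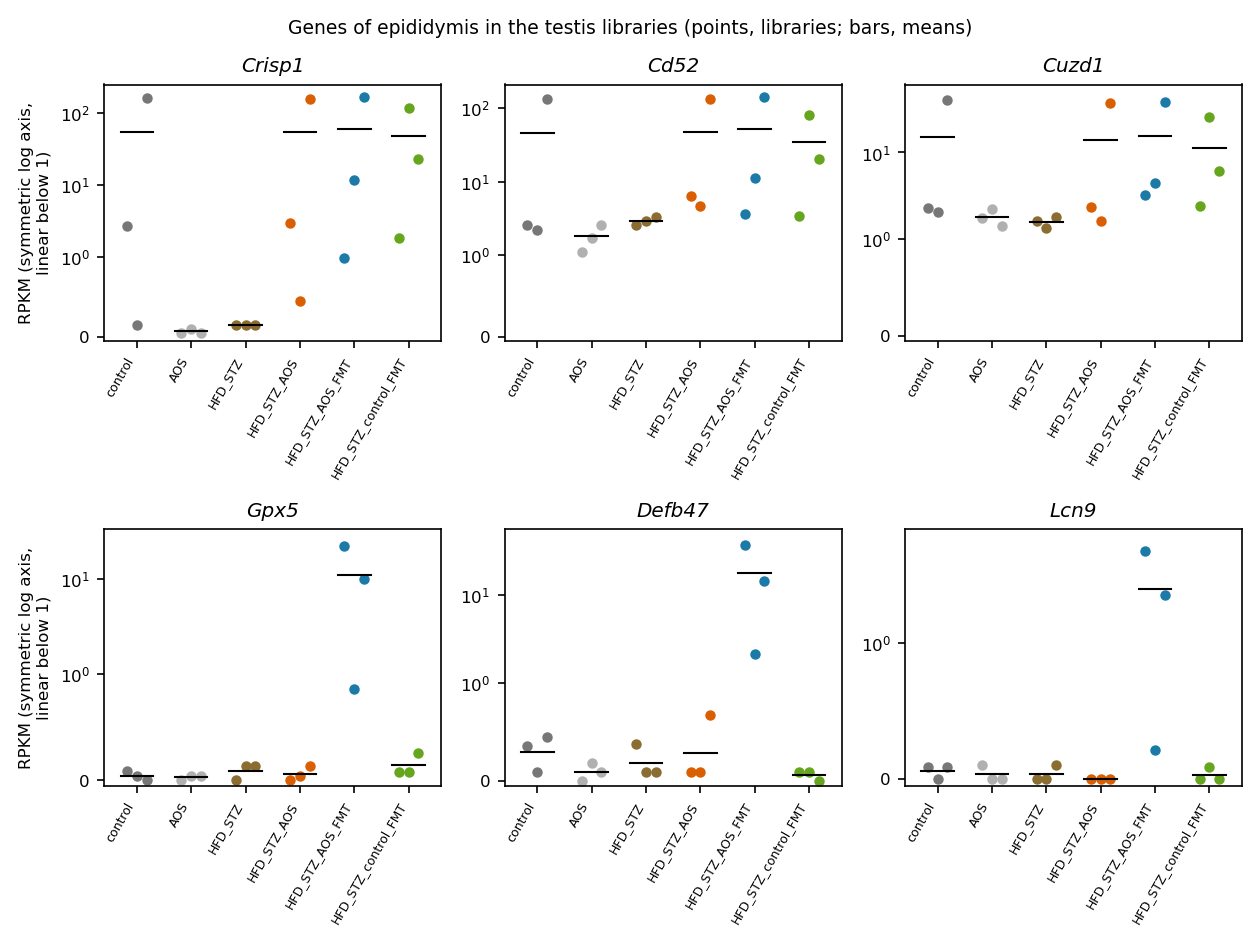
RPKM on a symmetric log axis (linear below 1) of 6 genes made in the epididymis, by group, 3 libraries each with a bar at the mean. Crisp1, Cd52 and Cuzd1 (top) were high in some libraries of 4 groups, while Gpx5, Defb47 and Lcn9 (bottom) were high only among the HFD_STZ_AOS_FMT libraries, with replicate 2 lowest (0.86 RPKM for Gpx5 against 22.21 in replicate 1).

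The 1 gene that fell, Gm13305 (chromosome 4, 42158842 to 42168603, minus strand), is a gene model in a region of near-identical copies of an interleukin 11 receptor gene, so its reads could have been split among copies. It was named after its values were seen. Gm13305 was at 5.28, 1.89 and 3.32 RPKM in the direct libraries and 0.51, 0 and 0.31 RPKM in the transfer libraries. Both groups lay apart, and HFD_STZ averaged 0.58 ± 0.24 RPKM (SD, n = 3), near the transfer group. The log2 difference was -1.77 ± 0.26 (SE), with an adjusted p of 0.0268 by limma. It passed in 6 of 15 other settings, and leaving out direct replicate 1 gave an adjusted p of 0.147.

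The 10 named genes of smallest p with lower values in the transfer group, gene models aside, did not pass. Several had a higher mean in HFD_STZ than in control, a difference that passed at none of them (smallest adjusted p 0.143 by limma, for Fitm1). Fitm1 encodes a protein of the endoplasmic reticulum that helps lipid droplets form. It was at 24.14, 13.95 and 36.52 RPKM in the direct libraries and 9.63, 7.97 and 8.66 RPKM in the transfer libraries. The transfer libraries were all below the lowest direct library, which the choice of named genes required. They were close together, while the direct libraries spread widely. The log2 difference was -1.31 ± 0.23 (SE), with an adjusted p of 0.0818 by limma, and without direct replicate 2 it was -1.66 with an adjusted p of 0.000777. The mean of HFD_STZ was 17.0 RPKM, of control 5.80 RPKM and of HFD_STZ_control_FMT 8.15 RPKM, so that recipients of either microbiota had similar means.

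Fbxl19, which encodes an F-box protein that binds CpG-rich DNA, was at 16.58, 15.02 and 18.15 RPKM in the direct libraries and 10.57, 12.37 and 12.33 RPKM in the transfer libraries. The log2 difference was -0.46 ± 0.08 (SE), with an adjusted p of 0.0508 by limma, and the means were 14.9 RPKM in HFD_STZ, 12.2 RPKM in control and 11.9 RPKM in HFD_STZ_control_FMT. Aldh3b2, a lipid aldehyde dehydrogenase, was at 18.15, 15.88 and 20.27 RPKM against 12.82, 13.78 and 10.92 RPKM (-0.50 ± 0.09, adjusted p 0.0856 by limma). Tpi1, the glycolytic triose phosphate isomerase, was at 200.95, 181.98 and 232.96 RPKM against 165.99, 164.30 and 155.17 RPKM (-0.33 ± 0.06, adjusted p 0.0882 by limma). In none of these genes did the groups overlap, which the choice of named genes required.

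Rassf8, a Ras-association domain protein of cell junctions, was at 2.68, 2.33 and 4.14 RPKM in the direct libraries and 0.76, 0.81 and 0.52 RPKM in the transfer libraries. Its log2 difference of -1.23 ± 0.25 (SE) had an adjusted p of 0.113 by limma. Nek8, a kinase of the cilium base, was at 6.63, 6.19 and 10.47 RPKM against 3.87, 4.07 and 5.14 RPKM, and Tead2, a transcription factor of the Hippo pathway, at 12.47, 11.07 and 16.54 RPKM against 9.33, 6.83 and 8.63 RPKM. Their differences were -0.68 ± 0.14 and -0.62 ± 0.13, both with an adjusted p of 0.113. In each of these 3 genes direct replicate 3 was highest and replicate 2 lowest.

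Rev1, a DNA polymerase that copies past damage, was at 14.96 to 17.23 RPKM in the direct libraries and 11.66 to 13.37 RPKM in the transfer libraries. Ccs, the chaperone that loads copper into superoxide dismutase, was at 33.75 to 38.15 and 29.05 to 30.26 RPKM, and Flywch2 at 32.24 to 43.39 and 23.76 to 28.26 RPKM. Their adjusted p-values by limma were 0.0893, 0.113 and 0.113. At all 10 of these genes the HFD_STZ mean lay between the means of both groups, and at all 10 the mean of HFD_STZ_control_FMT was nearer to the transfer group than to the direct group. The control mean was nearer to the transfer group at 9 of the 10. The HFD_STZ mean was itself nearer to the transfer group at 7. The genes were chosen because the transfer and direct groups lay apart, so other means are likely to fall between them. These counts have no share over all genes beside them and are descriptions only. In the same fit none of the 10 passed for the transfer group against HFD_STZ (smallest adjusted p 0.189 by limma, Fbxl19), for the direct group against HFD_STZ (0.199, Aldh3b2) or for the transfer group against HFD_STZ_control_FMT (0.999).

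Genes of other kinds were also among those of smallest p with higher values in the transfer group. Ppan, a factor of ribosome assembly in the nucleolus, was at 11.97, 12.22 and 11.54 RPKM in the transfer libraries and 9.07, 8.20 and 9.53 RPKM in the direct libraries (0.38 ± 0.07, adjusted p 0.0818 by limma). Rcbtb2, an RCC1-like protein of the acrosome-forming spermatid, was at 5.37, 6.70 and 7.30 RPKM against 3.65, 3.82 and 4.38 RPKM (0.59 ± 0.11, adjusted p 0.0818). Elmo3, a partner of DOCK proteins in cell movement and engulfment, was at 1.73, 1.66 and 1.62 RPKM against 0.85, 0.90 and 0.83 RPKM (0.52 ± 0.10, adjusted p 0.0893). In these genes every transfer library was above every direct library, which the choice of named genes required, and none passed.

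Elmo3 had a mean of 0.873 RPKM in HFD_STZ and 1.60 RPKM in control, so its transfer mean of 1.67 RPKM lay near control. Rcbtb2 did not, with 3.77 RPKM in HFD_STZ and 4.39 RPKM in control against 6.46 RPKM in the transfer group. Il31, annotated as an interleukin of itch and allergy, was at 39.71, 38.07 and 37.02 RPKM against 29.85, 30.70 and 26.90 RPKM (0.38 ± 0.07, adjusted p 0.0946 by limma). Ccdc173, a coiled-coil protein of axonemes, was at 133.28 to 138.85 RPKM against 110.63 to 115.16 RPKM (0.26 ± 0.05, adjusted p 0.113). Pcdha12, a protocadherin whose end is shared by all members of its cluster, so that its reads are uncertain, was at 1.88 to 2.02 RPKM against 0.56 to 1.46 RPKM. Across the 10 genes of smallest p with higher values, the HFD_STZ mean lay between the means of both groups at 8 and was nearer to the transfer group at 1. The mean of HFD_STZ_control_FMT was nearer to the transfer group at 2, and that of control at 5. These genes too were chosen for the distance between both groups, and no share over all genes is given.

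**Figure D4:**
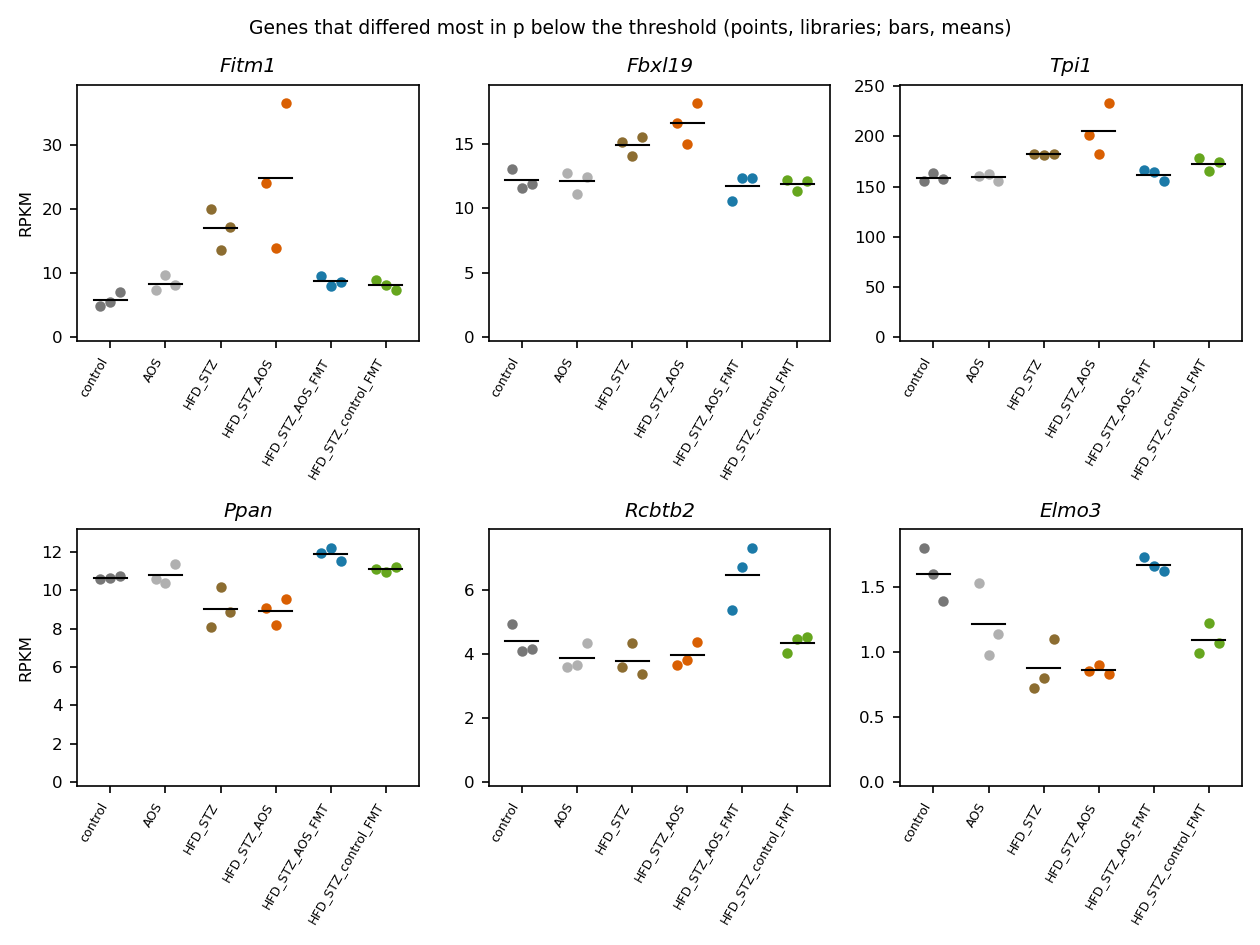
RPKM (vertical axis) of 3 genes with lower and 3 with higher values in the transfer group, by group, 3 libraries each with a bar at the mean. HFD_STZ_AOS and HFD_STZ_AOS_FMT do not overlap in any panel, which the choice of these genes required. Fitm1 had means of 24.9 and 8.75 RPKM, and none of the 6 passed the adjusted threshold.

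Genes were also read by lists for the cells and pathways of the testis, 33 in all beside the kidney list. No member of any of these 33 passed the test, so each list is described by its counts and its median. Over all genes the median was -0.009 and 46.3% were above 0. An unadjusted p under 0.05 was seen at 11.3% of all genes, and groups without overlap at 12.6%.

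Germ cell lists were balanced. Of 38 meiosis genes 17 were above 0 with a median of -0.01, of 30 round spermatid genes 19 with 0.02, of 32 elongating spermatid genes 14, and of 15 spermatogonial genes 8. Prm1 and Tnp1, which replace histones in spermatids, differed by -0.01 and -0.05 with adjusted p-values of 0.990 and 0.879 by limma. Of the 38 meiosis genes 9 had an unadjusted p under 0.05 (6 higher, 3 lower), where 11.3% of all genes did. Hormad2, which marks unpaired chromosome axes, was at 10.35, 10.04 and 10.46 RPKM in the transfer libraries and 7.43, 8.74 and 8.65 RPKM in the direct libraries (0.29 ± 0.07, adjusted p 0.149). Sycp2, an axial element of the synaptonemal complex, was at 77.71, 82.08 and 76.66 RPKM against 70.92, 75.30 and 67.43 RPKM (0.15 ± 0.05, adjusted p 0.278). Both had groups that did not overlap, as was so at 4 higher and 4 lower members of the list (12.6% of all genes). The groups did overlap for Sycp3, another axial element, at 180.53 to 192.39 RPKM against 167.48 to 192.22 RPKM.

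Leydig cell genes leaned to higher values without passing. Of 24 members 16 were above 0, the median was 0.11, and 4 had an unadjusted p under 0.05 (11.3% of all genes). Hsd3b1 and Hsd3b6 encode isoforms of the enzyme that turns pregnenolone into progesterone, Hsd3b6 being the adult Leydig form. Hsd3b1 was at 117.98, 180.73 and 110.38 RPKM in the transfer libraries and 85.06, 102.17 and 72.25 RPKM in the direct libraries (0.63 ± 0.21, adjusted p 0.269 by limma). Hsd3b6 was at 17.92, 20.27 and 19.91 RPKM against 25.43, 34.15 and 34.93 RPKM (-0.66 ± 0.16, adjusted p 0.157). The isoforms thus differed in opposite directions, neither with overlap, and in HFD_STZ_control_FMT their means were 136 and 9.69 RPKM. The 2 genes are close copies, and how the authors assigned shared reads is not given in the sources used here.

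Cyp17a1, the enzyme that opens the route to androgens, was at 265.67, 374.69 and 269.97 RPKM against 253.85, 240.33 and 234.23 RPKM (adjusted p 0.377 by limma). Lhcgr, the receptor for luteinizing hormone, was at 6.26, 12.31 and 8.63 RPKM against 5.53, 5.95 and 6.46 RPKM (0.49 ± 0.19, adjusted p 0.362). Star, which carries cholesterol into mitochondria, was at 39.51, 42.17 and 42.15 RPKM against 31.56, 30.58 and 65.20 RPKM (adjusted p 0.963). Transfer replicate 2 was the highest library of these 6 for Hsd3b1, Cyp17a1 and Lhcgr, and direct replicate 3 for Star. In whole tissue, more cells of a type and more RNA per cell cannot be told apart.

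Genes that load peptides onto MHC class I molecules held some of the larger differences of a list. Tap1, a subunit of the peptide transporter, was at 5.09, 3.87 and 3.07 RPKM in the transfer libraries and 0.53, 1.09 and 1.15 RPKM in the direct libraries (1.38 ± 0.38, adjusted p 0.181 by limma). Psmb9, an immunoproteasome subunit encoded beside it, was at 4.0, 5.10 and 3.02 RPKM against 1.11, 0.54 and 1.52 RPKM (1.30 ± 0.34, adjusted p 0.162). Tap2, the other transporter subunit, was at 2.68, 3.09 and 2.22 RPKM against 0.90, 1.36 and 1.25 RPKM (0.75 ± 0.24, adjusted p 0.248). The groups did not overlap at any of these, and the direct group had the lowest mean of the 6 groups for Tap1 and Psmb9. Tap1 and Psmb9 were chosen because earlier results of these data named them for the direct group against HFD_STZ. A direct mean far from HFD_STZ was thus part of the choice, and these values are descriptions only. Tap1 averaged 5.08 RPKM in HFD_STZ, 5.01 in AOS, 2.50 in control and 1.79 in HFD_STZ_control_FMT, with single libraries of these last groups as low as 0.73 and 0.59 RPKM. Psmb9 averaged 4.11, 4.14, 2.32 and 2.31 RPKM in the same groups.

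Of 17 tested members of that list, these included, 10 were above 0 and the median was 0.08 (-0.01 without direct replicate 2). Tap1, Tap2 and Psmb9 were the 3 of the 17 with an unadjusted p under 0.05 (11.3% of all genes). Psmb8 and Psmb10, the other immunoproteasome subunits, differed by 0.30 and -0.29, both with overlap, and H2-T23, a nonclassical class I gene, by 0.25 without overlap (adjusted p 0.672 by limma). H2-K1, a class I heavy chain, was at 33.79 to 34.24 RPKM in the transfer libraries and 28.57 to 40.38 RPKM in the direct libraries. Of 18 other interferon-stimulated genes 7 were above 0 and 0 had an unadjusted p under 0.05, with a median of -0.04.

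Fat cell genes had the highest median of all lists, 0.44, with 13 of 16 tested members above 0. Fabp4, the fatty acid carrier of adipocytes, was at 30.76, 46.19 and 93.87 RPKM in the transfer libraries and 5.12, 3.73 and 72.55 RPKM in the direct libraries (2.02 ± 0.88, adjusted p 0.398 by limma). Car3, a carbonic anhydrase abundant in fat, was at 17.26, 20.55 and 49.37 RPKM against 2.08, 1.99 and 35.26 RPKM (1.96 ± 0.82, adjusted p 0.384). The groups overlapped in both, because direct replicate 3 was as high as transfer libraries. In HFD_STZ_control_FMT the means were 52.1 RPKM for Fabp4 and 25.7 RPKM for Car3, near the transfer means of 56.9 and 29.1 RPKM. The median of the list for the transfer group minus HFD_STZ_control_FMT was 0.05. Adipoq, the hormone adiponectin, was at 13.23 to 16.20 RPKM against 10.38 to 16.49 RPKM. Pparg, the regulator of fat cell formation, was at 1.43, 1.67 and 1.80 RPKM against 1.11, 1.09 and 1.21 RPKM (0.30 ± 0.10, adjusted p 0.269). The summed level of the list was 225 to 383 RPKM in the transfer libraries and 165 to 320 RPKM in the direct libraries, and the part of attached fat was not tested.

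Lipid droplet genes beyond Fitm1 went both ways. Of 17 tested members 10 were above 0 with a median of 0.03. Plin3, a droplet coat protein, was at 12.15 to 13.97 RPKM in the transfer libraries and 14.49 to 17.09 RPKM in the direct libraries (-0.27 ± 0.09, adjusted p 0.249 by limma). G0s2, an inhibitor of the fat-splitting lipase ATGL, was at 2.06 to 3.51 RPKM against 1.21 to 1.76 RPKM (0.48 ± 0.16, adjusted p 0.266). Cholesterol synthesis had 15 of 25 genes above 0 and fatty acid oxidation 7 of 23, with medians of 0.01 and -0.05.

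Immune cell genes did not pass. Of 21 macrophage genes 15 were above 0 with a median of 0.09 and 0 under an unadjusted p of 0.05. Tyrobp, a signalling adaptor of myeloid cells, was at 4.10, 5.73 and 5.62 RPKM in the transfer libraries and 3.51, 3.48 and 3.95 RPKM in the direct libraries (0.39 ± 0.20, adjusted p 0.472 by limma). Cd68, a lysosomal protein of macrophages, was at 2.36 to 4.80 RPKM against 2.53 to 4.94 RPKM (adjusted p 0.920). Of 20 lymphocyte genes 4 were tested, among them Lck, a T cell kinase, at 0.98, 0.95 and 1.02 RPKM against 1.51, 1.18 and 3.12 RPKM (-0.51 ± 0.19, adjusted p 0.327). Of 4 red cell genes 0 were above 0, with a median of -0.22 that turned to 0.09 without direct replicate 3 and to 0.41 without the 6 libraries of the series high in Crisp1.

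Immediate early genes, which respond within minutes to stimuli and to handling of tissue, had 16 of 23 above 0 and a median of 0.06. An unadjusted p under 0.05 was seen at 7 of them (5 higher, 2 lower), and at 11.3% of all genes. Egr1, a zinc finger factor, was at 3.41, 2.21 and 2.86 RPKM in the transfer libraries and 1.44, 1.59 and 1.97 RPKM in the direct libraries (0.51 ± 0.15, adjusted p 0.195 by limma). Junb, an AP-1 subunit, was at 3.40, 3.56 and 3.65 RPKM against 1.88, 2.29 and 3.32 RPKM. Jund, another AP-1 subunit, was at 26.29, 21.71 and 21.62 RPKM against 27.19, 27.49 and 34.79 RPKM (-0.35 ± 0.10, adjusted p 0.194). The groups did not overlap at these 3 genes, which were named as the members of smallest p. Of the 23 members, 3 higher and 1 lower had groups without overlap, against 12.6% of all genes. In HFD_STZ_control_FMT, Egr1 was at 1.38, 2.13 and 2.86 RPKM.

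Retinoid genes were mostly below 0. The 19 genes make, carry, break down or read the vitamin A signal that starts meiosis. Of the 19, 18 were lower in the transfer group, with a median of -0.09, some by little (Rdh11 and Crabp1 by -0.02). Their mean level, as log2(RPKM + 1), was 3.12 in direct replicate 3 and 2.98 and 2.99 in replicates 1 and 2. The transfer libraries were at 2.9 to 2.98. An unadjusted p under 0.05 was seen at 3 of the 19, and at 11.3% of all genes. Stra8, the retinoic acid target at meiotic entry, was at 6.24 to 8.82 RPKM in the transfer libraries and 7.83 to 9.04 RPKM in the direct libraries (adjusted p 0.835 by limma). Of 40 cytosolic ribosomal protein genes 31 had lower values, with a median of -0.05 that turned to 0.07 without those 6 libraries. Rpl13 was at 422.78 to 479.80 RPKM against 482.98 to 535.15 RPKM (-0.17 ± 0.05, adjusted p 0.224 by limma). It too was chosen because earlier results of these data named it for the direct group against HFD_STZ.

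Sertoli cell genes (15 of 31 above 0), oxidative phosphorylation subunits (22 of 43), actin genes (14 of 27), insulin and glucose genes (15 of 25) and glucocorticoid-responsive genes (8 of 16) had medians of 0.00 to 0.01. Amh and Cldn11, a Sertoli cell hormone and a junction protein of the blood-testis barrier, had adjusted p-values of 0.888 and 0.963 by limma. Genes of extracellular matrix and peritubular cells had 8 of 25 above 0 with a median of -0.07, which was 0.07 without direct replicate 3. Microbial sensing genes, which include receptors for bacterial products, had 6 of 14 above 0 and 2 under an unadjusted p of 0.05 (11.3% of all genes).

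**Figure D5:**
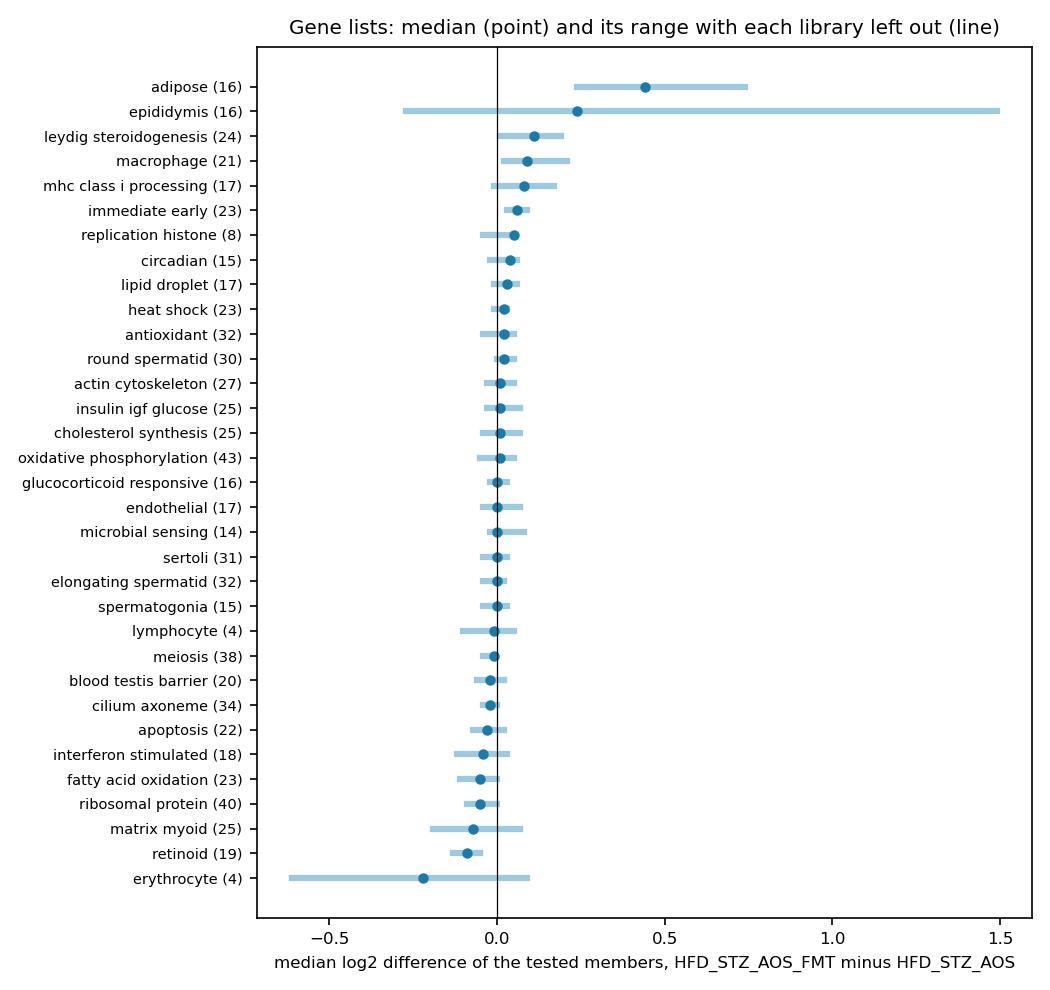
Points are the median log2 difference, transfer minus direct, of the tested members of 33 gene lists (number tested in brackets), and lines span the values with each of the 6 libraries left out in turn. Adipose (0.44) and epididymis (0.24) stand highest, the epididymis line reaches across 0, and most other lists lie within 0.1 of 0.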

How the data were processed

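The authors deposited 1 table of values per gene symbol and library, read as RPKM from the values themselves, since value times transcript length summed to nearly the same total (1280059 to 1307469) in every library. The submitters' processing notes name Bowtie 0.12.2 and mm10, and the counter, annotation and strand setting are not given in the sources used here. RPKM shares a fixed total among genes, so abundant transcripts move all others. Of 20985 rows, 6 rows of 3 repeated symbols were left out. No read totals were given, and steps between low values placed single libraries at implied depths too far apart to be trusted, so depth was taken as unknown.

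Values were tested as log2(RPKM + 1) with limma 3.58.1 (trend) in R 4.3.3, with 1 coefficient for each of 6 groups, 12 residual and 3.71 prior degrees of freedom. Fold sizes on this scale understate low genes. The genes to be named were up to 10 higher and 10 lower ones of smallest p, taken among genes without overlap between the groups and with a higher mean of 1 RPKM or more, leaving out gene models (Gm, Rik and LOC names), since fewer than 5 passed in each direction. The rule added the 3 members of smallest p of lists whose median differed by 0.1 or in which 20% had p under 0.05. A fixed panel was added too, and some of its genes were chosen because earlier results named them for the direct group against HFD_STZ. Comparisons, lists and rules were chosen with earlier results of these data known, and the kidney list after Kap was seen. Some genes are not reported here, and the counts over all genes include them. Coordinates and lengths came from GENCODE vM21 of mm10 (97.9% of tested genes had a length). Alternatives were median ratio scaling, no filter, a pseudocount of 0.1, removal of the trend on length, robust variance, a fit on both groups alone, a replicate block and omission of libraries.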

Additional observations from a re-analysis of the deposited data

Results flagged for a closer look

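Genes below the filter on low values were not part of the test, and 11 kidney genes among them were higher in every transfer library than in all 15 other libraries. Their means over the 3 transfer libraries were 0.95 RPKM for Cyp4b1, 0.907 RPKM for Slc34a1, 0.697 RPKM for Napsa, 0.557 RPKM for S100g, 0.537 RPKM for Keg1, 0.513 RPKM for Cltrn and 0.35 RPKM for Acsm2. The lowest were Umod at 0.29 RPKM, Cdh16 at 0.257 RPKM, Slc22a6 at 0.2 RPKM and Cyp2j5 at 0.157 RPKM. The kidney list was chosen after Kap had been seen, and the source of this RNA was not tested.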

How the results depend on the processing

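The 3 called genes (2 higher, 1 lower) became 14 (7 and 7) with the length trend removed, 8 (6 and 2) with median ratio scaling, 21 (14 and 7) without a filter, 5 (3 and 2) with only both groups in the fit and 7 (6 and 1) without the 6 libraries above 5 times the median of Crisp1. None was called lower at a pseudocount of 0.1 (3 higher) or, as chosen after seeing the data, without the 4 libraries above 100 RPKM of Crisp1 (2 higher). Leaving out 1 library gave 2 to 129 called, 2 to 31 higher and 0 to 98 lower. With a replicate block 2 genes were called, 0 of them lower. Deviations of same-numbered libraries correlated at 0.292, 0.089 and 0.358, and those of differently numbered libraries at -0.342 to 0.172. Direct replicate 2 correlated best with transfer replicate 1 (0.172). Whether same-numbered samples share more than a number was not tested. Kap, which met the filter only through the transfer libraries, had log2 differences of 4.95 to 7.98 in the 15 other settings. The cause of the other changes was not tested.

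Of 975 values of 65 named genes, 884 kept direction and side of the threshold, 43 newly passed, 9 no longer passed (all Gm13305) and 39 changed sign. Without the 6 libraries high in Crisp1 the log2 differences were 0.83 for Hbb-bt, 0.03 for Stra8, 0.22 for Prm1, 0.14 for Tnp1, -0.12 for Amh, -0.16 for Cd68, -0.26 for Crisp1, 0.12 for Rps29 and 0.05 for Myl6. Without the 4 libraries they were 0.15 for Hbb-bt, 0.09 for Alas2, 0.05 for Stra8, 0.09 for Prm1 and 0.12 for Cldn11. Prm1 was at 0.02 with the length trend removed and 0.01 with median ratios. Leaving out 1 library gave Cd8b1 -0.27 to 0.03, Cd3d -0.08 to 0.22, Hbb-bt -1.0 to 0.11, Alas2 -0.14 to 0.07, Star -0.14 to 0.4, Sycp3 -0.01 to 0.09 and Stra8 -0.19 to 0.03. It gave Prm1 -0.1 to 0.05, Tnp1 -0.13 to 0.02, Amh -0.03 to 0.23, Cldn11 -0.1 to 0.07, Cd68 -0.08 to 0.31 and Crisp1 -0.95 to 2.75. Of 495 list medians 483 moved by less than the spread between replicates. Depth was unknown, so differences among genes near 0 RPKM carry no counting interval.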

Other observations

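Some of the largest differences that did not pass lay in families of near-identical genes, named here after their values were seen. Btbd35f3 had a mean of 2.87 RPKM in the transfer libraries and was listed at 0 in the direct libraries (adjusted p 0.181 by limma), while Btbd35f4 had a mean of 3.24 RPKM in the direct libraries and was listed at 0 in the transfer libraries (adjusted p 0.176). Cfhr3, of the complement factor H family, had a mean of 5.22 RPKM in the direct libraries and was listed at 0 in the transfer libraries (adjusted p 0.318). Dynlt1a, a dynein light chain with close copies, had means of 11.9 RPKM in the transfer libraries and 2.08 RPKM in the direct libraries (adjusted p 0.243). How the authors assigned reads shared by such copies is not given in the sources used here.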
